A study of Acipenser dabryanus with 12 samples.

Results

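The genes described here are 168 genes of the Yangtze sturgeon (Acipenser dabryanus) that were higher in liver after the daily meal than before it, under each of 2 diets. They were chosen by their liver values, out of 280408 genes of a de novo transcriptome assembly made with Trinity, a program that builds transcripts from reads without a genome. A member had a mean of at least 10 and under 1000 TPM over the 4 liver libraries, and its value after the meal, with 1 TPM added, was at least 2-fold its value before the meal under both diets. TPM is transcript abundance per length, scaled to a fixed total within a library. Of the 5394 genes with a liver mean in that range, the 168 members made up 3.11%, and the other 5226 genes of the range serve for comparison.

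The libraries came from liver, brain and spleen of fish 6 months old that had eaten a diet with soybean oil or with fish oil for 7 weeks. They were taken 1 h after the daily meal (the labels' postprandial feed) or 1 h before it (longterm feed), and each of the 12 combinations of tissue, diet and feeding state had 1 library. Each diet was fed in 1 pond, so diet and pond cannot be told apart, nor can feeding state and sampling hour. The labels also speak of more libraries than the 12 used here and of 3 samples per group. Whether a library held 1 fish or several pooled fish is not stated in the labels. Their protocol text describes the dissection of liver, although the samples are labelled as 3 tissues. The assembled genes carry no names in the files used here, so the members are given by their assembly IDs, no function is assigned to any of them, and the tissues could not be checked by known marker genes.

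The liver is the first organ to receive most of the nutrients absorbed after a meal, through the portal vein. In the fed state, insulin turns the liver from releasing glucose towards storing it as glycogen and making fat, and amino acids stimulate protein synthesis. The liver also packages dietary and newly made fat for export in lipoproteins. The spleen is a blood-forming and immune organ in fish.

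In place of named markers, IDs enriched at least 8-fold in one tissue over both others were summed. The 1029 liver-enriched IDs held 581326 and 483105 TPM in the livers after the meal (soybean oil and fish oil) and 573054 and 486624 TPM in the livers before it. The 1442 brain-enriched IDs summed to between 1033 and 1408 TPM in the 4 livers, and 445 of them were listed at 0 in every liver. The 279 spleen-enriched IDs summed to 5022 and 3873 TPM after the meal and 6015 and 4293 TPM before it, so both livers after the meal held less of them than the liver of the same diet before it. The number of genes of at least 1 TPM was 40932 and 46726 after the meal and 29749 and 41124 before it, higher after the meal with either diet. The part of these shifts in the members' values was not tested. In whole-tissue libraries, more cells of a type and more RNA per cell cannot be told apart. Sequencing depth cannot be read from TPM, so counting error is not given.

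The members' summed level in liver after the meal was 6487 TPM under soybean oil and 11031 TPM under fish oil, against 1730 TPM with soybean oil and 3057 TPM with fish oil before it. The sum was thus 3.75-fold higher after the meal with soybean oil and 3.61-fold higher with fish oil. These folds follow from how the members were chosen and carry no test. Fish oil livers held the larger sum in either feeding state.

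**Figure D1:**
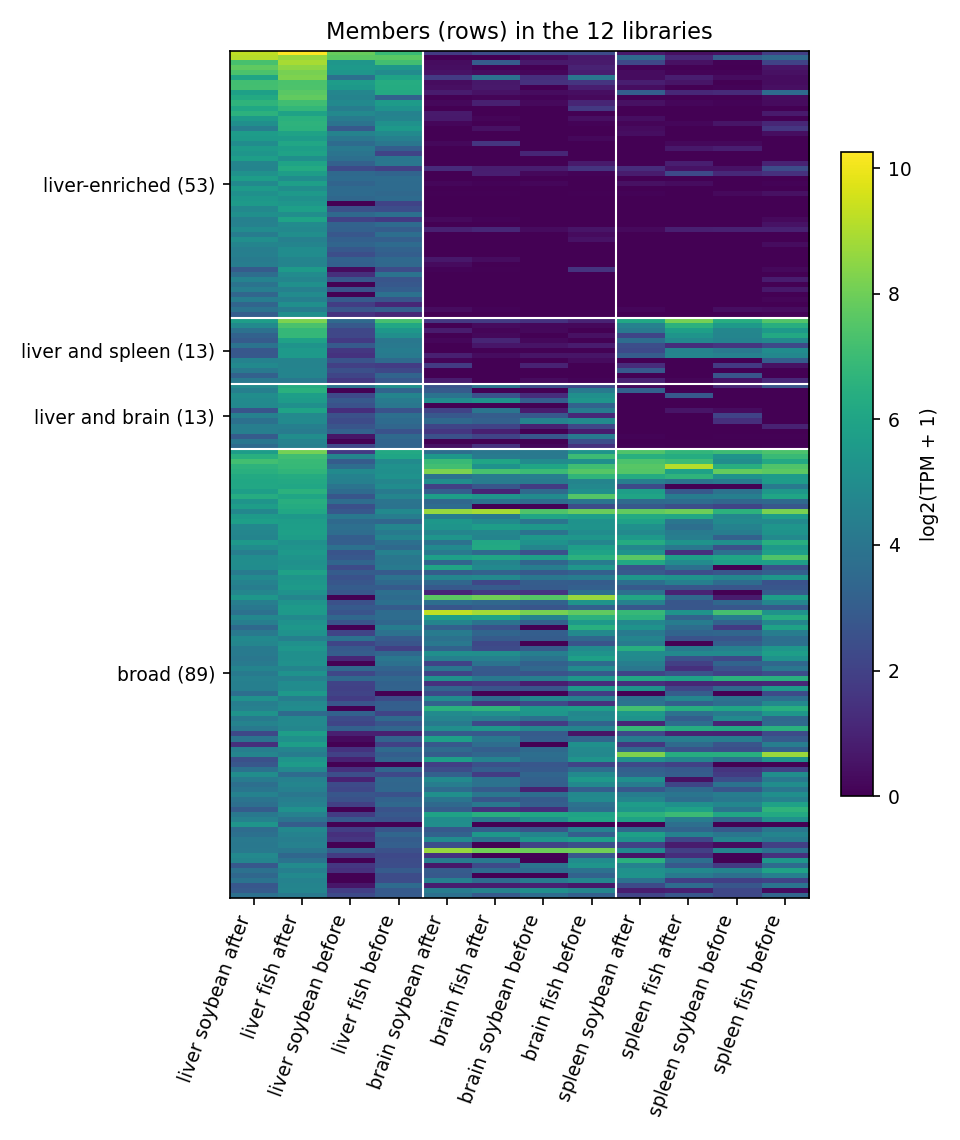
Each row is 1 of the 168 members and each column 1 of the 12 libraries, with colour for the level as log2(TPM + 1). Many members that are bright in liver are dark in brain and spleen, while others are as bright in brain or spleen as in liver.

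Within the members, the log2 fold after over before the meal had a median of 1.78 with soybean oil (range 1.02 to 5.59) and 1.47 with fish oil (range 1.00 to 5.61). The other genes of the range had medians of 0.09 with soybean oil and -0.04 with fish oil, and all 89972 genes tested had a median of 0 with either diet. At least 4-fold was reached by 66 members with soybean oil, 45 with fish oil and 22 with both. The fold was larger with soybean oil in 101 members and with fish oil in 67. The 2 folds lay within 1 log2 unit of each other in 112 members and over 2 apart in 23. A low value before the meal was more frequent with soybean oil, where 23 members were under 1 TPM and 17 were listed at 0, against 4 and 3 with fish oil. Where the value before the meal was listed at 0, the log2 value depends on the 1 TPM added and is no measure of the fold; the top of either range is such a case.

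The fold rule counts 1 gene as 1 member whatever its level, and most members were of modest level. The liver mean had a median of 17.8 TPM, with a range of 10.1 to 545 TPM, and 9 members reached 100 TPM. In 144 members the lower of the 2 libraries after the meal lay above the higher of the 2 before it, and in 24 the libraries overlapped. In those 24, the higher library before the meal, of one diet, was above the lower library after it, of the other. The rule sets each value after the meal above that of the same diet before it, so these counts follow in large part from the choice. They were not made for the other genes of the range and carry no test. The background for the choice was uneven between diets. At least 2-fold higher values after the meal were found in 760 genes of the range with soybean oil and 346 with fish oil, so the members were 22.1% of the first list and 48.55% of the second. At least 2-fold lower values were found in 169 genes with soybean oil and 303 with fish oil. Both diets together gave 41 genes at least 2-fold lower, while 51 were higher with soybean oil and lower with fish oil, and 11 the reverse.

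**Figure D2:**
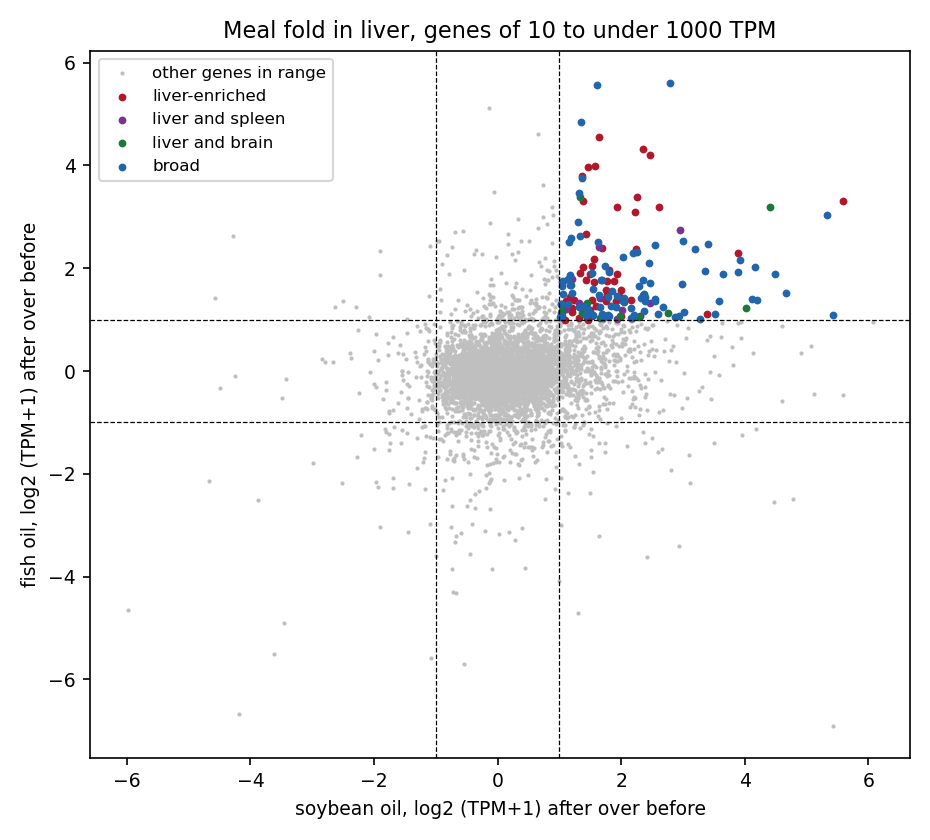
Each point is a gene with a liver mean of 10 to under 1000 TPM, placed by its log2 fold after over before the meal with soybean oil and with fish oil. The members fill the corner where both folds are at least 1, as the rule sets, and the other genes centre near 0.

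The members with the largest smaller fold were both listed at 0 in the liver before the meal with soybean oil. TRINITY_DN110945_c4_g1 was at 47.2 TPM with soybean oil and 41.0 TPM with fish oil after the meal, against 0 and 3.22 TPM before it. It was listed at 0 in all 8 brain and spleen libraries. TRINITY_DN118965_c1_g2 was at 20.3 TPM with soybean oil and 88.8 TPM with fish oil after the meal, against 0 and 8.87 TPM before it. Its brain values after the meal were 6.76 TPM for soybean oil and 0 for fish oil, against 0 and 17.4 TPM before it. With fish oil its log2 liver fold was 3.19, and no fold is given against the library at 0.

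The most abundant member, TRINITY_DN139819_c1_g1, averaged 545 ± 494 TPM in liver (SD, n = 4). Its 4 livers held 609 TPM with soybean oil and 1215 TPM with fish oil after the meal, against 233 and 121 TPM before it. Its log2 fold was 1.38 with soybean oil and 3.32 with fish oil, and both livers after the meal lay above both before it. The 4 libraries of a tissue differ in diet or feeding state. The SD given here and those below thus hold these differences and are no spread of replicates. TRINITY_DN113106_c1_g3 was the second in level, at 555 TPM with soybean oil and 401 TPM with fish oil after the meal, against 204 and 195 TPM before it. Its folds were alike between the diets, at 1.44 with soybean oil and 1.03 with fish oil on the log2 scale.

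At the edge of the rule, TRINITY_DN142963_c0_g1 was the member closest to the limit. Its livers held 49.5 TPM with soybean oil and 58.9 TPM with fish oil after the meal, against 22.7 and 28.9 TPM before it, with log2 folds of 1.09 and 1.00. TRINITY_DN119308_c4_g2 was the gene closest outside, at 130 TPM with soybean oil and 245 TPM with fish oil after the meal, against 36.5 and 123 TPM before it. Its log2 folds were 1.80 with soybean oil and 0.99 with fish oil, so it is no member although its liver level is higher.

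Trinity can split a gene into several IDs that share a component of the assembly. The members lay in 164 components, with 48 members alone in theirs and 120 sharing 116 components with other IDs. The summed TPM of the shared component passed the fold in both diets in 89 of the 116 components. Of the other 27, 25 were still higher after the meal in both diets. A member held a median of 94.8% of its component's liver TPM, and 16 held under 50%. The component sums hold the members' own liver values, so their passing follows in large part from the rule. No share for other genes of the range is given beside it.

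The tissue distribution of the members was taken from the mean of the 4 libraries in each tissue, and the pattern names used here were set after the values were seen. A tissue was counted as low where the liver mean, with 1 TPM added, was at least 8-fold higher. By that measure, 53 members (31.5%) were low in both brain and spleen and are called liver-enriched, 13 (7.74%) were low only in brain, 13 (7.74%) were low only in spleen, and 89 (53.0%) were low in neither and are called broad. Among the other genes of the range, the shares were 16.8%, 1.76%, 7.27% and 74.2%. Liver-enriched members were thus more frequent and broad members less frequent than in the rest of the range, as a description of these 4 livers. The liver means hold the same values that the rule used, so this comparison is not independent of the choice of members. The highest of a member's 12 libraries was a liver library in 114 members, with 95 in the fish oil liver and 19 in the soybean oil liver after the meal. For 28 members it was a brain library and for 26 a spleen library. By the rule no liver before the meal can be the highest, and these counts were not made for the other genes of the range.

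The 53 liver-enriched members had a median of 25.3 TPM in liver, 0.065 TPM in brain and 0.075 TPM in spleen. Their liver folds had a median of 1.64 with soybean oil and 1.74 with fish oil on the log2 scale. The 13 members low only in brain were at a median of 17.9 TPM in liver and 18.6 TPM in spleen, where their means ran from 0.68 to 150 TPM. The 13 members low only in spleen were at a median of 16.7 TPM in liver and 6.04 TPM in brain, where their means ran from 0.92 to 28.8 TPM. Both patterns thus include members of low level outside the liver that stay short of the 8-fold limit. The 89 broad members had a median of 16.1 TPM in liver, 17.3 TPM in brain and 20.7 TPM in spleen, and liver folds of 1.93 with soybean oil and 1.48 with fish oil as medians of log2 values. Both brain and spleen averaged under 1 TPM in 48 members, and 13 were listed at 0 in all 8 libraries.

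Liver was set against brain and spleen with limma, a linear model with a shared estimate of the spread across genes, fitted to log2(TPM + 1) of all 12 libraries, with diet and feeding state counted as spread. At a Benjamini-Hochberg adjusted p of 0.05, 78 of 168 members (46.4%) were higher in liver than in brain, beside 6.44% of all genes tested and 38.3% of the genes of the range. Another 12 (7.14%) were lower in liver than in brain, beside 37.3% of all genes tested and 28.3% of the range. Against spleen, 75 members (44.6%) were higher in liver, beside 7.88% of all genes tested and 43.3% of the range. The members lower in liver than in spleen numbered 15 (8.93%), beside 25.3% of all genes tested and 23.6% of the range. The share of members higher in liver than in spleen is close to that of the range, which shares the floor on the liver mean. The p-values set the tissue difference against the spread between these libraries, which differ in diet or feeding state. The liver values among them are those that the rule used, and each member's meal fold in liver is part of that spread.

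Members named here and in the next paragraph were picked as extremes of the liver difference from brain and spleen. Their p-values test the difference they were picked by and are not independent of that pick. TRINITY_DN133290_c1_g7 stood among the members furthest above both other tissues. Its livers held 213 TPM with soybean oil and 365 TPM with fish oil after the meal, against 45.0 and 41.6 TPM before it, and its highest value in brain or spleen was 0.99 TPM. Liver was above brain by 6.42 ± 0.59 on the log2 scale (SE, limma adjusted p = 2.51e-06) and above spleen by 6.62 ± 0.59 (SE, limma adjusted p = 3.11e-06). TRINITY_DN139819_c1_g1 was the other, with 3.71 ± 0.85 TPM in brain and 1.05 ± 1.16 TPM in spleen (SD, n = 4 each). Its log2 difference was 6.36 ± 0.59 over brain and 7.68 ± 0.59 over spleen (SE, limma adjusted p = 2.62e-06 and 8.13e-07).

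At the other end, TRINITY_DN141124_c3_g1 was a member of far higher level in brain. Its livers held 16.9 TPM with soybean oil and 15.6 TPM with fish oil after the meal, against 6.74 and 4.82 TPM before it, while brain averaged 293 ± 75.4 TPM (SD, n = 4). Liver was below brain by 4.74 ± 0.57 on the log2 scale (SE, limma adjusted p = 2.35e-05), with all 4 livers under all 4 brains. The difference from spleen was -0.41 ± 0.57 (SE, limma adjusted p = 0.655). TRINITY_DN133446_c3_g1 averaged 18.6 ± 17.6 TPM in liver, 391 ± 183 TPM in brain and 85.3 ± 56.9 TPM in spleen (SD, n = 4 each). Its log2 difference was -4.58 ± 0.61 (SE, limma adjusted p = 5.65e-05) from brain and -2.25 ± 0.61 (SE, limma adjusted p = 0.0123) from spleen.

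**Figure D3:**
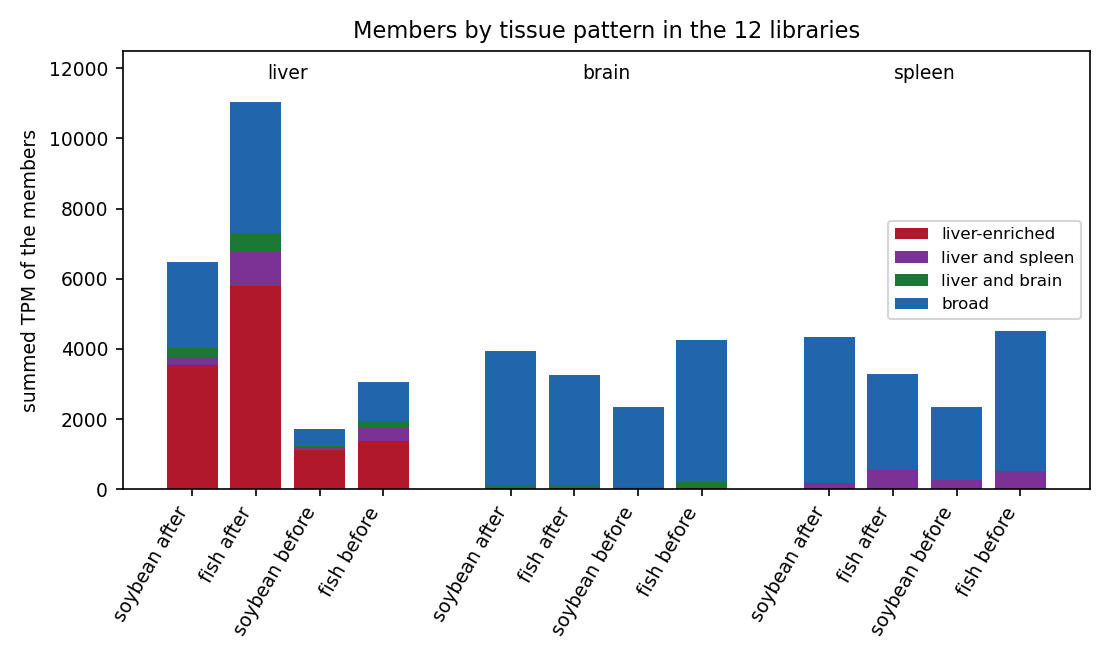
Bars give the summed TPM of the members in each of the 12 libraries, after and before the meal by tissue and diet, divided into the 4 tissue patterns (liver and spleen stands for low only in brain, liver and brain for low only in spleen). In liver both sums after the meal exceed both before it, while in brain and spleen the after sum is the larger with soybean oil and the smaller with fish oil.

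The meal folds in brain and spleen use libraries that the choice of members did not, but the error of their test draws on liver too. Neither the members nor the other genes passed the test of the meal in these tissues. With limma, fitted with a tissue level and a diet and a meal term in each tissue (3 residual degrees of freedom), 0 of 168 members were called in brain, beside 0% of 89972 genes tested. At an unadjusted p under 0.05, 7 members (4.17%) were counted in brain, with 2 higher and 5 lower after the meal, beside 8.44% of the other genes of the range and 8.19% of all genes tested. The lowest adjusted p of a member was 0.354. In spleen 0 of 168 members were called, beside 0% of genes tested. At an unadjusted p under 0.05 the count was again 7 members (4.17%), with 4 higher and 3 lower, beside 2.30% of the other genes of the range and 3.41% of all genes tested, and the lowest adjusted p was 0.965. The spread in this model is the difference between the diets in the meal fold, because no combination has a second library. It is taken over the 3 tissues, so the part from liver comes from the libraries that the rule used. Fitted to the brain and spleen libraries alone, the model again called 0 members in either tissue, beside 0 of 89972 genes tested.

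Applied to the brain, the fold rule found 1 member at least 2-fold higher in both diets, beside 0.945% of the genes of the range, and 3 members at least 2-fold lower, beside 2.71%. In spleen it found 4 members at least 2-fold higher, beside 0.593%, and 0 lower, beside 0.482%. The mean log2 fold of the 2 diets had a median of 0 over the members in either tissue, where many are set near 0 by their low level: 23 members were listed at 0 in all 4 brain libraries and 24 in all 4 spleen libraries. Over the members averaging at least 5 TPM in the tissue, the median was -0.06 in brain and -0.09 in spleen. Without that floor of 5 TPM, the median over the other genes of the range was -0.07 in brain and -0.16 in spleen. Over all genes tested, also without it, the median was 0.01 in brain and -0.04 in spleen. These stand beside the median of 0 over all members.

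With the diets taken apart, the median log2 fold over all 168 members was 0.17 with soybean oil and -0.17 with fish oil in brain, and 0.22 and -0.34 in spleen. Of the 87 members averaging at least 5 TPM in brain, 49 (56.3%) were higher after the meal with soybean oil and lower with fish oil, beside 22.0% of the other genes of the range at that level. Another 12 (13.8%) were higher in both diets, 18 (20.7%) were lower in both and 7 (8.05%) were lower with soybean oil and higher with fish oil. The shares of the other genes were 23.9%, 31.8% and 22.3%. The median log2 fold of these 87 members was 0.45 with soybean oil and -0.63 with fish oil.

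In spleen the same split was found in a larger share. Of the 87 members of at least 5 TPM there, 62 (71.3%) were higher with soybean oil and lower with fish oil, beside 41.9% of the other genes. There were 9 (10.3%) higher in both diets, 9 (10.3%) lower in both and 7 (8.05%) the reverse of the main direction, beside 7.99%, 28.3% and 21.7% of the other genes. The median log2 fold was 0.98 with soybean oil and -0.80 with fish oil.

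Broad members made up 78 of the 87 of that level in brain, and 78 of the 87 in spleen. The broad members' median log2 meal fold in brain was 0.49 with soybean oil and -0.66 with fish oil, against -0.07 with either diet in the other broad genes of the range. In spleen it was 1.07 with soybean oil and -0.75 with fish oil, against 0.01 and -0.37 in the other broad genes. The broad members' summed TPM in brain was 3828 with soybean oil and 3128 with fish oil after the meal, against 2273 and 4024 before it. In spleen the sums were 4154 and 2733 after the meal, against 2064 and 3973 before it. The number of genes of at least 1 TPM moved alike. In brain it was 66426 with soybean oil and 66103 with fish oil after the meal, against 52435 and 78832 before it. In spleen it was 60507 and 47226 after the meal, against 48131 and 62193 before it. The part of this shift in the members' folds was not tested. Quantile normalization gives every library the same distribution of values. Under it the broad members' medians kept their directions, at 0.25 with soybean oil and -0.90 with fish oil in brain. In spleen the broad members' medians were 0.96 and -0.56. Over all members the medians under it were 0 and -0.04 in brain, against 0.17 and -0.17 without it. In spleen those of all members were 0.03 and -0.13, against 0.22 and -0.34. No median of the other broad genes is given under that normalization, so it does not set the members apart from the shift.

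**Figure D4:**
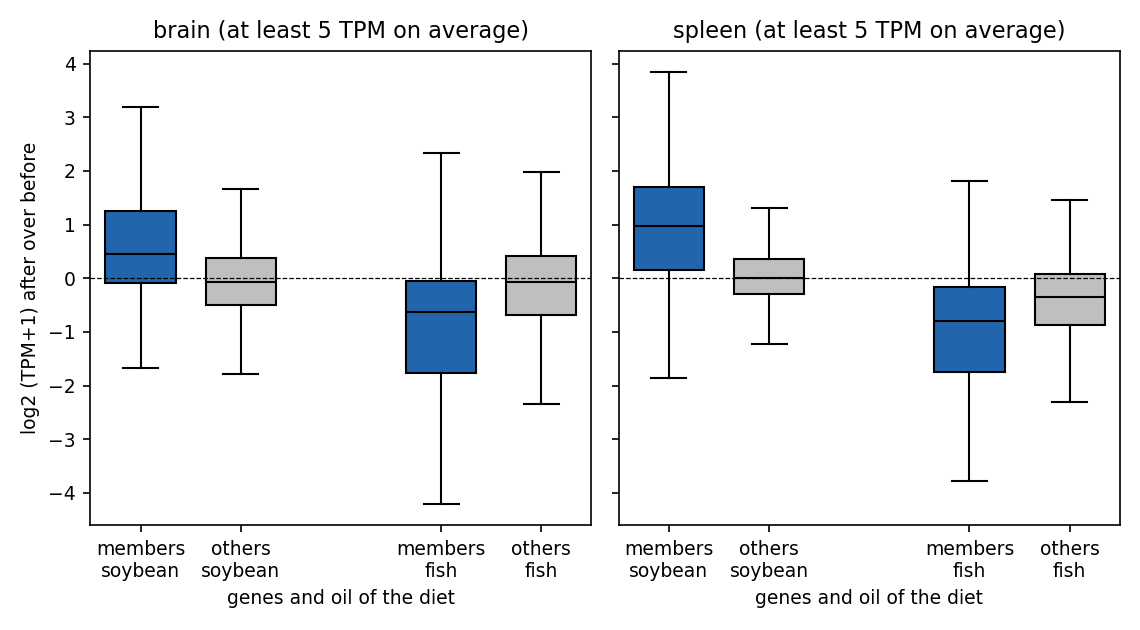
Boxes give the log2 meal fold in brain and in spleen of the members and the other genes of the range averaging at least 5 TPM in that tissue, by oil of the diet; boxes span the quartiles with a line at the median, and values beyond the whiskers are not drawn. Members are above 0 at the median with soybean oil and below 0 with fish oil in both tissues, at 0.45 and -0.63 in brain and 0.98 and -0.80 in spleen.

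Among members averaging at least 5 TPM in brain, 2 had the largest fold upwards by the smaller fold of the 2 diets, and both were of high level there. TRINITY_DN133446_c3_g1 was at 621 TPM with soybean oil and 450 TPM with fish oil after the meal, against 282 and 211 TPM before it. Both brains after the meal were above both before it, with a limma log2 fold of 1.11 ± 0.26 (SE, adjusted p = 0.408). TRINITY_DN112517_c1_g1 was at 407 and 471 TPM after the meal, against 171 and 242 TPM before it, with a limma log2 fold of 1.10 ± 0.40 (SE, adjusted p = 0.581). In the opposite direction, TRINITY_DN119086_c0_g1 was at 19.1 and 16.9 TPM in brain after the meal, against 63.4 and 53.9 TPM before it, a limma log2 fold of -1.65 ± 0.32 (SE, adjusted p = 0.354). In liver the same gene was at 47.0 and 42.8 TPM after the meal, against 16.1 and 19.2 TPM before it. TRINITY_DN123772_c0_g3 was at 0.57 TPM with soybean oil and 4.11 TPM with fish oil in brain after the meal, against 14.5 and 39.7 TPM before it (limma log2 fold -3.15 ± 0.89 SE, adjusted p = 0.490).

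In spleen, by the same measure among members of at least 5 TPM there, TRINITY_DN108863_c4_g1 was one of the 2 with the largest fold upwards, at 192 TPM with soybean oil and 554 TPM with fish oil after the meal, against 85.5 and 171 TPM before it. Its limma log2 fold was 1.42 ± 0.77 (SE, adjusted p = 1). In liver it was at 98.9 and 117 TPM after the meal, against 11.6 and 35.2 TPM before it. The second, TRINITY_DN117658_c3_g1, was at 5.15 TPM with soybean oil and 12.7 TPM with fish oil in spleen after the meal, against 0 and 4.88 TPM before it. Of the 9 members of that level lower in both diets, none of which passed the test, 2 lay furthest down by the same measure. TRINITY_DN136480_c3_g5 was at 3.39 and 38.5 TPM in spleen after the meal, against 24.2 and 72.6 TPM before it (limma log2 fold -1.71 ± 0.46 SE, adjusted p = 0.965). TRINITY_DN107363_c0_g1 was at 2.14 and 10.6 TPM, against 5.45 and 20.1 TPM.

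A few members varied little outside the liver. Among the 94 members averaging at least 1 TPM in both brain and spleen, 6 (6.38%) varied by under 2-fold, with 1 TPM added, over the 8 brain and spleen libraries, beside 17.9% of the other genes of the range. This list was set after the values were seen. Their liver log2 folds were 1.19 to 2.36 with soybean oil and 1.77 to 2.90 with fish oil, the larger with fish oil in 5 of the 6. TRINITY_DN120241_c1_g1 was at 38.5 TPM with soybean oil and 85.8 TPM with fish oil in liver after the meal, against 11.8 and 14.2 TPM before it, and between 9.57 and 14.6 TPM in brain and spleen. TRINITY_DN110033_c1_g1 was at 18.4 and 56.5 TPM after the meal, against 6.86 and 6.73 TPM before it, and between 4.29 and 8.61 TPM elsewhere. For this pair the livers before the meal were within the range of the other tissues, and the livers after it were above that range.

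Diet in liver was a contrast of the same libraries that the members were chosen on, though not of the meal. A low value before the meal with soybean oil helps a gene pass the rule and also lowers it against fish oil before the meal. In the soybean oil liver before the meal 17 members were listed at 0, against 3 with fish oil. The direction and size of the diet difference are thus not independent of the choice of members. Members tended to lie lower with soybean oil. The median log2 difference of soybean oil over fish oil was -0.58 after the meal and -0.84 before it, while the other genes of the range had -0.20 and -0.34 and all genes tested 0 and -0.04. In both states 112 members (66.7%) were lower with soybean oil and 14 (8.33%) were higher, beside 49.8% and 10.1% of the other genes. At least 2-fold lower in both states were 39 members, beside 3.15% of the genes of the range, and 1 was at least 2-fold higher, beside 0.575%. By tissue pattern, these were 9 of 53 liver-enriched members, 9 of 13 low only in brain, 5 of 13 low only in spleen and 16 of 89 broad members, beside 3.19%, 6.52%, 10.5% and 1.47% of the other genes of the same pattern. With quantile normalization the count was 21 lower and 1 higher, and the members' median difference was -0.30 after the meal and -0.35 before it. The other genes of the range were not counted under that normalization, so the 3.15% and 0.575% are no background for the 21 and the 1.

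No member passed the test of diet: limma called 0 of 168, beside 0% of 89972 genes tested. At an unadjusted p under 0.05, 32 members (19.0%), all lower with soybean oil, were counted, beside 7.42% of the other genes of the range and 3.25% of all genes tested. The lowest adjusted p of a member was 0.654. The error in this test rests on the diet-by-meal difference, which in liver comes from the same libraries as the rule, so these p-values are not independent of the choice of members. By the smaller of its differences in the 2 feeding states, TRINITY_DN134163_c1_g5 was the member furthest below fish oil. It was at 13.3 TPM with soybean oil and 114 TPM with fish oil after the meal, and 3.54 and 42.1 TPM before it, a limma log2 difference of -3.13 ± 0.31 (SE, adjusted p = 0.654). TRINITY_DN136480_c3_g5 held 8.31 and 112 TPM after the meal and 3.51 and 32.9 TPM before it, a difference of -3.26 ± 0.46 (SE, limma adjusted p = 0.681). Both stand in the pattern low only in brain. In the opposite direction, TRINITY_DN135822_c2_g2 was at 37.3 TPM with soybean oil and 10.6 TPM with fish oil after the meal, and 8.25 and 3.30 TPM before it, and TRINITY_DN136292_c2_g2 held 28.5 and 20.6 TPM after the meal and 13.2 and 6.63 TPM before it.

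A group of 7 members had profiles alike over the 12 libraries. The group was found after the values were seen, as the members with a Pearson correlation of at least 0.95 to TRINITY_DN113816_c0_g1, counting that gene, on log2(TPM + 1). All 7 were low in brain and present in liver and spleen, and correlations over tissues share the tissue difference. The next member stood at 0.9498 and 2 other genes of the range passed. TRINITY_DN113816_c0_g1 was at 51.8 TPM with soybean oil and 303 TPM with fish oil in liver after the meal, against 10.6 and 148 TPM before it. In spleen it was at 68.0 and 274 TPM after the meal, against 82.0 and 177 TPM before it, and in brain at most 2.41 TPM. Its closest match was TRINITY_DN134163_c1_g5, described above for its diet difference. Over the 7, the liver log2 difference of soybean oil over fish oil was -3.60 to -2.44 after the meal and -3.68 to -2.36 before it. In spleen that difference was -3.17 to -1.15 after the meal and -1.54 to -0.21 before it. Their meal folds were 1.05 to 2.18 with soybean oil and 1.03 to 1.80 with fish oil in liver, against -2.52 to -0.27 and -0.90 to 0.63 in spleen. The set lay lower with soybean oil in both tissues and higher after the meal in liver. In spleen none was higher after the meal with soybean oil. TRINITY_DN113816_c0_g1 itself has the same diet difference and the same spleen direction with soybean oil. These shared traits follow in part from the choice by correlation to it, and the rise in liver follows from the rule.

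**Figure D5:**
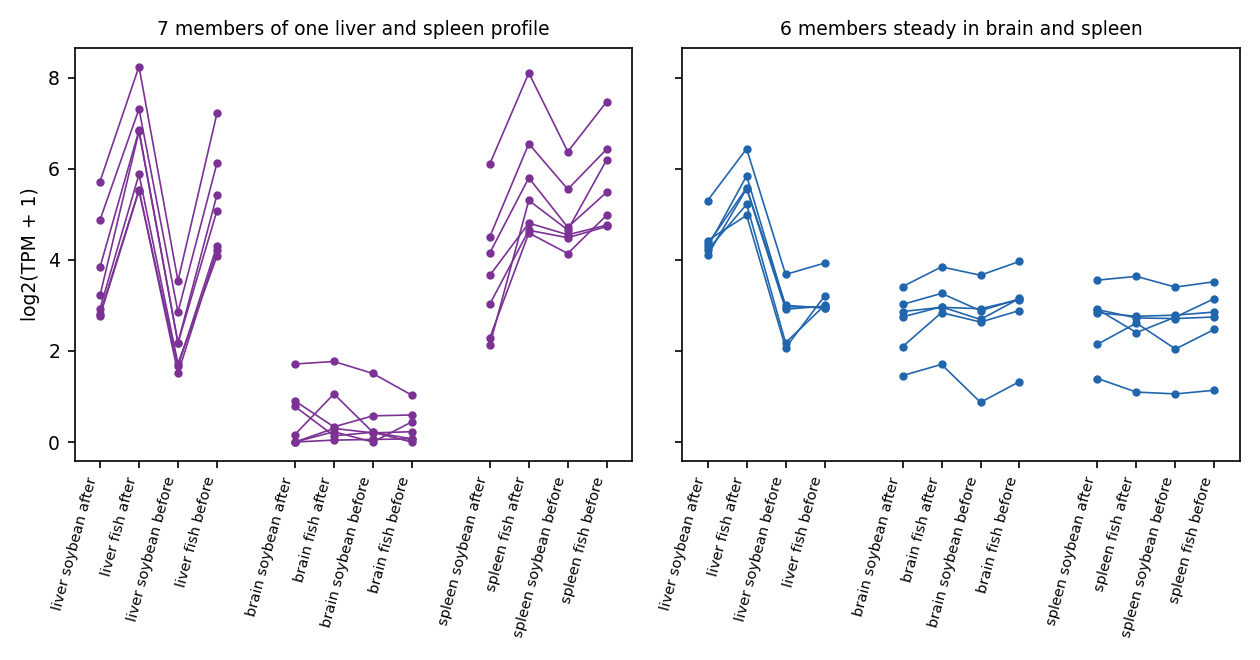
Lines give log2(TPM + 1) over the 12 libraries for the 7 members alike in profile and for the 6 members that varied little in brain and spleen. The first set is low in brain, and in liver and spleen lies lower with soybean oil, and the second varies little outside the liver and highest in the livers after the meal.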

How the data were processed

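Gene expression was measured by RNA sequencing in brain, liver and spleen. The authors deposited TPM values per Trinity gene, 1 library per column, each summing to 1000000 with 2 decimals. Per the labels' protocols, reads were cleaned and put together with Trinity. The quantification tool is not given in the sources used here. Groups came from the labels. The rule was applied to the TPM values, with 1 TPM added before every fold and log2 value, which understates folds of low genes. Of 280408 genes, those of at least 1 TPM in 2 libraries (89972) entered limma 3.58.1 (trend and robust options, R 4.3.3) as log2(TPM + 1), and p-values were adjusted by Benjamini-Hochberg over all of them. Meal and diet used 9 coefficients, tissues 3. The fit was run on simulated data with large folds and random noise. Those data held no diet-by-meal difference beyond that noise, so they do not show how the fit performs on these libraries. Summaries used Python 3.11.15, pandas 2.3.3 and numpy 2.4.6, and plots matplotlib 3.10.9. Alternatives were quantile normalization, other filters, pseudocounts and folds, Trinity components, and each library left out. The members and lists were chosen with earlier results of these data known. Genes named are, per comparison and direction, at most 2 with the largest value of the smaller fold over diets, states or tissues (for the meal in brain and spleen, of at least 5 TPM there), with those of highest liver mean and those at the rule's edge, except the profile and steady sets, chosen after their values were seen. Annotation and sequences were not used here.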

Additional observations from a re-analysis of the deposited data

Results flagged for a closer look

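Broad members differed in meal fold between the diets in both tissues outside the liver. The median log2 meal fold of the soybean oil pair minus that of the fish oil pair was 1.1533 in brain and 1.8174 in spleen over the 89 broad members. The difference was not tested, because 1 library stands for each diet and state in a tissue. The other broad genes of the range had medians of -0.07 with either diet in brain. In spleen theirs were 0.01 with soybean oil and -0.37 with fish oil. The number of genes of at least 1 TPM also rose after the meal with soybean oil and fell with fish oil in both tissues. The part of that shift in the members' difference was not tested.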

How the results depend on the processing

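The number of members followed the limits of the rule. A fold of at least 1.5 gave 382 genes and a fold of at least 3 gave 44, a liver mean of at least 5 TPM gave 340 and of at least 20 TPM gave 71. The soybean oil pair alone gave 760 and the fish oil pair alone 346, alternatives added after seeing the data. A pseudocount of 0.1 gave 185, components 159 and no upper bound 169. Quantile normalization gave 135, of which 92 were among the 168 (54.8%). Under it the members' median log2 meal fold in liver was 1.33 with soybean oil and 1.21 with fish oil, against 1.78 and 1.47 without it. Quantile normalization also brought to 0 the median meal fold of all genes tested, which was 0.13 with soybean oil in brain and -0.17 with fish oil in spleen. With a brain or spleen library left out, the meal term in that tissue is the fold of the diet that keeps both its libraries there. With a liver library left out, the diet term in liver is likewise the difference in the feeding state that keeps both its libraries. Each such term sets 1 library against 1, and the spread comes from the other tissues alone. Counts of calls from those fits are therefore not given, and the next sentence does not cover them. Every other alternative run called 0 members for the meal in brain and spleen and for diet in liver. Some of these runs called other genes, out of 89972 tested. With diet counted as spread, 477 genes were called for the meal in brain and 204 in spleen. With the meal counted as spread, 45 were called for diet in liver. The libraries of the tissue alone gave 4 for the meal in brain, 72 in spleen and 102 for diet in liver. The members called in either direction numbered 77 to 98 against brain, and 78 to 97 against spleen, beside 90 in each. With diet and meal as a block of 4 levels they were 93 and 95. The genes tested and called in all changed too. In the main fit 39379 of 89972 genes were called against brain and 29852 against spleen. The 77 were out of 151 members with a mean of at least 5 TPM, where 13249 of 17843 genes were called. The 98 of 168 came with quantile normalization, where 30146 of 89972 genes were called. Depth is unknown for TPM.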
